A study of Homo sapiens with 14 samples.

Results

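The genes described here are 6 ligands of the bone morphogenetic protein (BMP) family, BMP2, BMP4, BMP5, BMP6, BMP7 and GDF7, and the 4 genes of the ID family, ID1, ID2, ID3 and ID4. They were taken by gene symbol alone, each symbol matched 1 entry, and together they make up 10 of the 57445 genes counted in the undifferentiated and day 11 libraries. All 10 had enough counts to be tested at day 11.

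RNA was sequenced from human pluripotent stem cells (hPSC) of the established line H9 (WA-09) and from cultures of that line directed toward midbrain dopamine neurons, in 14 libraries of 7 groups with 2 libraries each. The hPSC were kept undifferentiated in Essential 8 medium. Every differentiating culture started with SHH C25II (an active form of sonic hedgehog), LDN (an inhibitor of BMP type I receptors), SB431542 (an inhibitor of TGF-beta and activin receptors), a ROCK inhibitor and 0.7 µM CHIR99021. CHIR99021, called CHIR below, inhibits the kinase GSK3 and so turns on WNT signalling. From day 4 the 4 arms received 0.7, 3, 5 or 7.5 µM CHIR, and on day 7 LDN, SB431542 and SHH were withdrawn from all of them. The medium given on day 10 held BDNF, ascorbic acid, GDNF, TGFβ3, dibutyryl cAMP and 3 µM CHIR in every arm. Cultures of all 4 arms were taken at day 11, 4 days after the BMP receptor inhibitor had been removed. The day 16 and day 30 groups followed the 7.5 µM arm through replating into medium that also held DAPT, which blocks Notch cleavage. The records differ on the end of the CHIR step and on the later sampling day, and the sample labels are followed here. All groups come from 1 line. No label says that the 2 libraries of a group came from different cultures, and a p-value here reflects the spread of these libraries alone, which may be technical.

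BMPs are secreted dimers that bind paired type I and type II receptor kinases. The receptors phosphorylate SMAD1, SMAD5 and SMAD9, which join SMAD4 and bind regulatory DNA. ID1, ID2 and ID3 are classic direct targets of these SMADs and are widely read as a measure of BMP signalling. ID proteins have a helix-loop-helix domain but no DNA-binding region, and they tie up the E proteins TCF3, TCF4 and TCF12, partners of the factors that drive neurons to form. In the neural tube, BMPs from the roof plate pattern the dorsal side, opposite SHH from the floor plate.

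Gene counts per library came to 20524827 to 44758969 in the hPSC and day 11 groups and to 5406488 to 6336374 at days 16 and 30. Levels are given in CPM, a gene's counts scaled to the same total of gene counts in each library. Changes are log2 fold changes from edgeR's quasi-likelihood test, with p-values adjusted by Benjamini-Hochberg over all genes tested and a threshold of 0.05. The standard error (SE) beside them is derived: the size of the change divided by the square root of the test's F statistic. The replicate 1 libraries of the 4 day 11 arms stood apart from the replicate 2 libraries: 10401 of 18709 genes (55.6%) differed between these sets by edgeR. Without the replicate number as a block, no gene passed in any of the 5 pairs of doses compared (0% of 18709). In those edgeR fits 1641 genes had an unadjusted p below 0.05 for 7.5 against 0.7 µM, 567 for 5 against 0.7, 276 for 3 against 0.7, 101 for 5 against 3 and 1168 for 7.5 against 5. DESeq2 without the block called 657, 129, 17, 0 and 203 genes in the same order. The words rose and fell are used at day 11 of the fit with the replicate number as a block. As a check of the dose, 6 of 7 WNT feedback genes rose from 0.7 to 7.5 µM. AXIN2, which limits WNT signalling, was at 24.8 and 71.1 CPM at 0.7 µM and at 262 and 317 CPM at 7.5 µM. The summed level of 5 midbrain floor plate markers was 218 to 712 CPM at day 11 against 22.0 to 24.8 in hPSC, and that of 5 pluripotency markers was 32.3 to 110 against 2335 to 2683. DPPA4 made up most of this day 11 pluripotency sum, at 57.2 and 104 CPM with 0.7 µM. POU5F1 was at 0.731 and 0.983 CPM with 0.7 µM against 463 and 522 in hPSC.

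BMP7 was the most abundant ligand RNA in each day 11 library. Per kilobase of exon, the scale on which genes can be set beside each other, BMP7 made up 49.5% to 94.8% of the summed level of the 6 ligands over the 8 day 11 libraries, and 65.9% and 67.0% in hPSC. The sum itself was 7.24 ± 0.518 CPM per kb in hPSC (mean ± SD, n = 2, as for the other values of this kind). It was 40.0 ± 8.62 at 0.7 µM, 39.7 ± 1.24 at 3 µM, 50.4 ± 7.14 at 5 µM and 58.8 ± 5.20 at 7.5 µM. The libraries of 3 µM (38.8 and 40.5) lay inside the range of 0.7 µM (33.9 to 46.1), those of 5 µM (45.4 and 55.5) above 3 µM, and those of 5 and 7.5 µM overlapped (55.2 and 62.5 at 7.5 µM). No test was made of a sum over these genes. These sums carry no scaling factor, while the edgeR fits do. Those factors ran from 0.7595 in replicate 1 at 3 µM to 1.145 in replicate 2 at 7.5 µM. Dividing by them would raise the sums of the former library and lower those of the latter. The order of the doses in these sums, and in the ID sums below, was not checked with such factors. At 7.5 µM the order per kb was BMP7 (36.8 ± 5.77), BMP6 (8.43 ± 1.46), BMP2 (5.58 ± 4.21), BMP5 (4.27 ± 2.98), BMP4 (3.49 ± 2.17) and GDF7 (0.218 ± 0.144). Among BMP6, BMP2, BMP5 and BMP4 no neighbours in this order differed beyond their spread, while BMP7 lay above and GDF7 below all of them.

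The ID genes summed to more than the ligands on the same scale in each of the 10 hPSC and day 11 libraries, with ID3 in the lead at day 11. The sum of the 4 ID genes per kb was 51.1 ± 18.6 in hPSC, 62.1 ± 6.60 at 0.7 µM, 71.9 ± 14.3 at 3 µM, 93.6 ± 17.4 at 5 µM and 90.4 ± 18.7 at 7.5 µM. Set side by side, both ligand sums at 0.7 µM were above those of hPSC, while the ID sums of these 2 groups overlapped. ID3 accounted for 41.3% to 76.5% of the ID sum at day 11 and 39.5% and 44.5% in hPSC. ID4 took 40.6% and 30.5% of it at 0.7 µM and 4.77% to 13.6% at the higher doses. In bulk RNA, fewer cells of a type and less RNA per cell cannot be told apart.

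**Figure D1:**
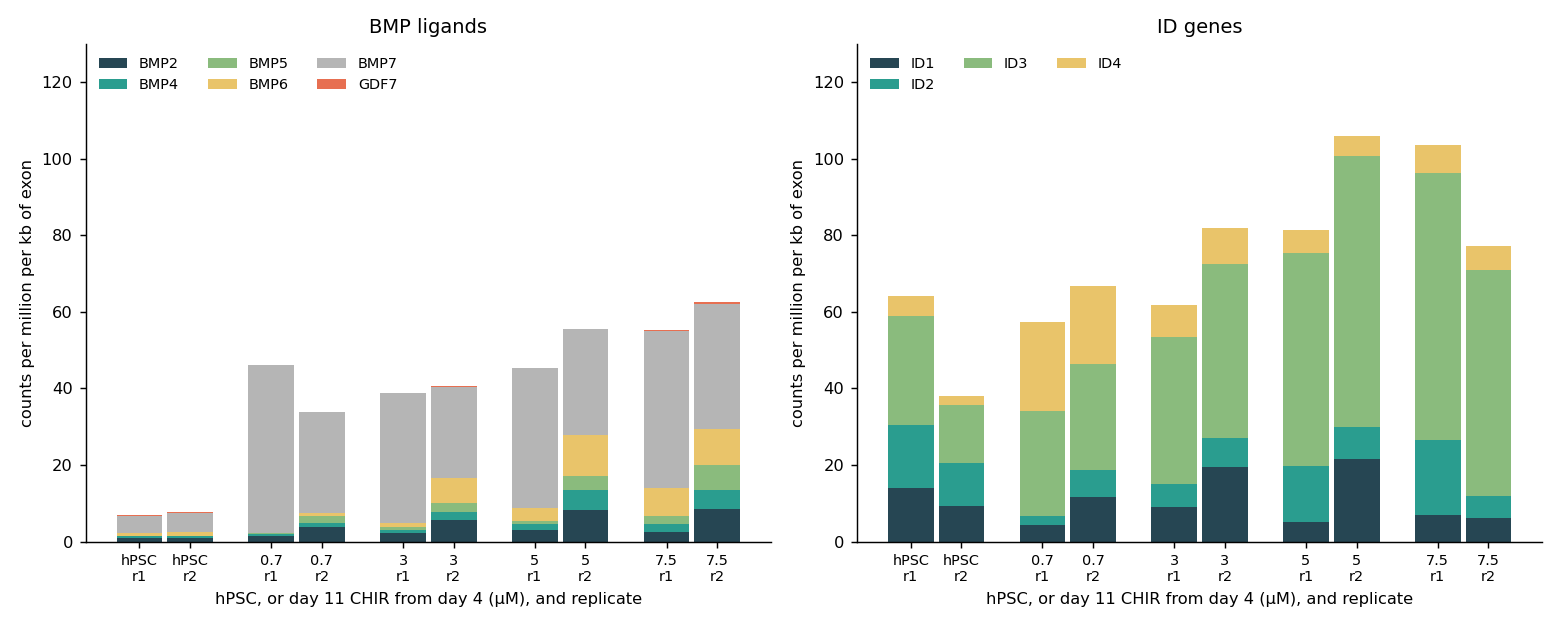
Level of each ligand (left) and each ID gene (right) per kb of exon, in CPM per kb, stacked in 1 bar per hPSC and day 11 library (r1 and r2 are replicates 1 and 2). BMP7 fills 49.5% to 94.8% of the day 11 ligand bars, and ID3 fills 41.3% to 76.5% of the day 11 ID bars.

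Among the ligands, BMP4, BMP5 and BMP6 rose from 0.7 to 7.5 µM CHIR, and the test found no change of BMP7. In this comparison 1967 of 18709 genes (10.5%) passed, and 5 of the 10 genes described here did: these 3 ligands and ID3 upward and ID4 downward. From 0.7 to 5 µM, BMP4, BMP6 and ID3 rose and ID4 fell, 4 of the 10 where 1.13% of genes passed. From 0.7 to 3 µM none of the 10 passed (0.0214% of genes did), with BMP6 at 3.34 (SE 0.74, adjusted p = 0.246) and ID4 at -1.10 (SE 0.25, adjusted p = 0.246) the farthest from 0 relative to their errors. Neither step between the higher doses called any of the 10: 6.53% of genes passed from 5 to 7.5 µM. From 3 to 5 µM edgeR called 0 genes, with 527 at an unadjusted p below 0.05, and DESeq2 called 33.

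**Figure D2:**
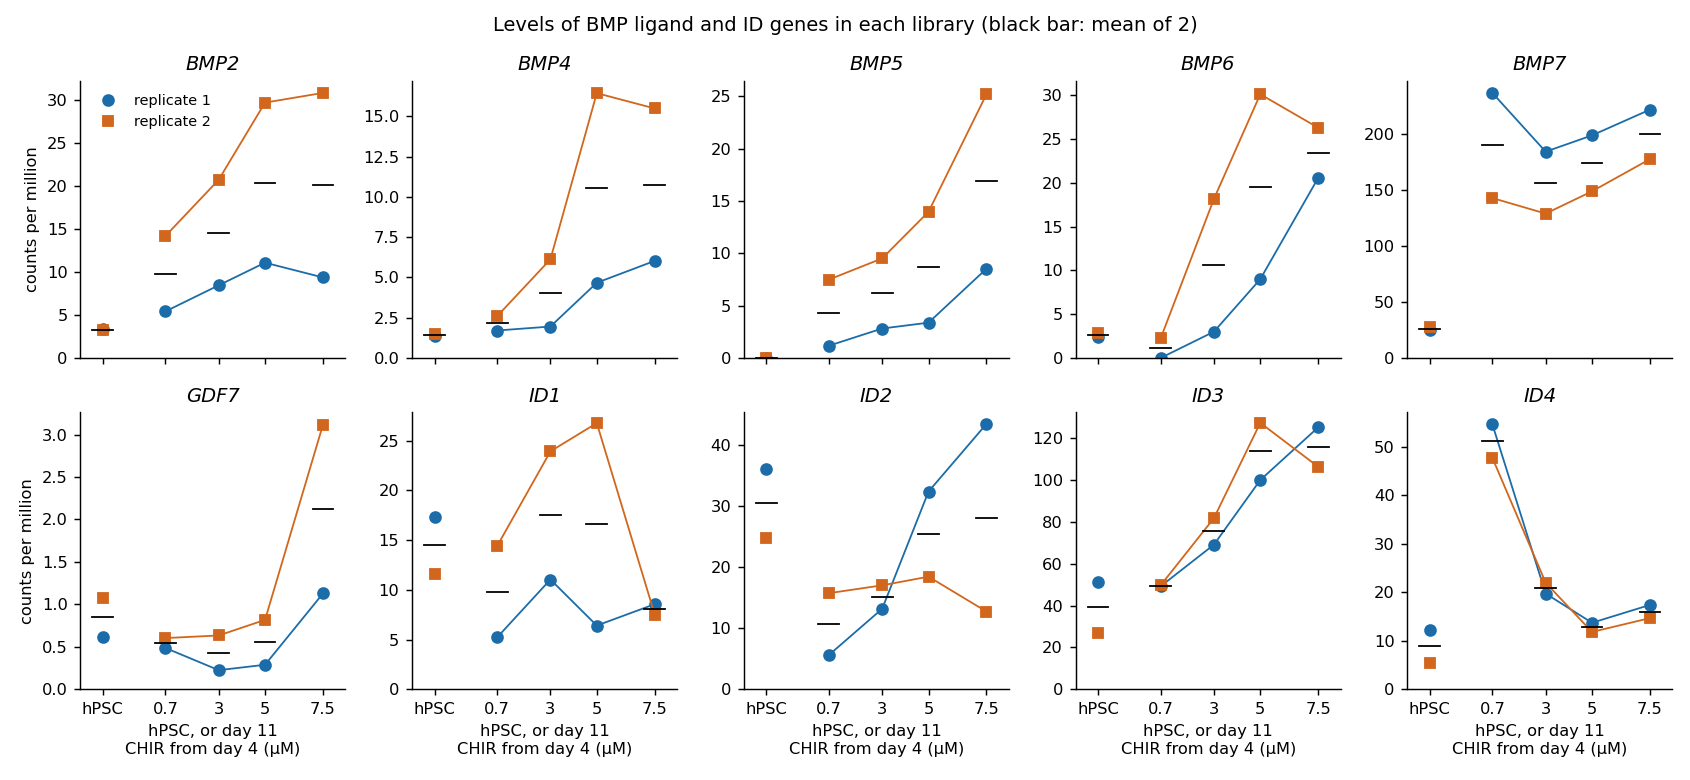
CPM of each gene (one panel each, its own linear axis from 0) in the 2 hPSC libraries and the 8 day 11 libraries, by CHIR dose in µM on a linear axis. Circles are replicate 1, squares replicate 2, lines join day 11 libraries of 1 replicate number, and black bars are means of 2. BMP6 goes from 0 and 2.23 CPM at 0.7 µM to 20.6 and 26.3 at 7.5 µM, and ID4 from 54.7 and 47.7 to 17.4 and 14.7.

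BMP6, a ligand of the same subgroup as BMP5 and BMP7, had the largest change of the 10 genes in the 7.5 against 0.7 µM fit. It was at 2.45 and 2.87 CPM in hPSC (replicates 1 and 2, an order kept throughout) and at 0 and 2.23 CPM at 0.7 µM. It then stood at 3.00 and 18.2 at 3 µM, 9.00 and 30.1 at 5 µM, and 20.6 and 26.3 at 7.5 µM. Within each replicate set every higher dose lay above 0.7 µM. The replicate 1 library at 0.7 µM held no BMP6 count, so that the 7.5 µM library of that set was at least 141-fold higher, against the 0.146 CPM that 3 counts would give. In the replicate 2 set the ratio was 11.8. BMP6 rose by 4.75 (SE 0.78, adjusted p = 0.00576) from 0.7 to 7.5 µM and by 4.35 (SE 0.76, adjusted p = 0.0274) from 0.7 to 5 µM. The size of this value depends on the empty library: without it the changes were 3.93 (adjusted p = 0.0161) and 3.61 (adjusted p = 0.0731), and without the other 0.7 µM library 11.6 and 11.3. The call at 7.5 µM held without any 1 of its 4 libraries. Over the 4 doses its slope was 1.49 per doubling of CHIR (SE 0.28, adjusted p = 0.0395, where 1.19% of genes passed). Among 11702 other genes with a mean of at least 5 CPM, AXIN2 followed BMP6 most closely over the 8 day 11 libraries, with a Pearson r of 0.983 of log2(CPM + 0.5). These libraries share doses and replicate sets, so the value is a description.

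The BMP6 window shown here is the 250 bases before the annotated start, chr6:7725849-7726098 on the plus strand, from RefSeq on GRCh38.p14. It was searched on both strands for 3 short motifs: GGCGCC, a GC-rich element that BMP SMADs can bind, CAGAC, the SMAD box, and CTTTGA, the core bound by the WNT effectors TCF and LEF. It holds none of them, so the sequence is in lower case throughout.
BMP6: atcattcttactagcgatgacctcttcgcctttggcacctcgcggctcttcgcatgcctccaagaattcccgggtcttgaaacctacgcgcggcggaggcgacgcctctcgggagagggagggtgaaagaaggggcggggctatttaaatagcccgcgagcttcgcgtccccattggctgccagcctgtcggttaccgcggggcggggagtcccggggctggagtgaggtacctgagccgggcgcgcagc

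BMP4, a ligand of early dorsal and mesodermal patterning, was at 1.39 and 1.48 CPM in hPSC. At day 11 it was at 1.71 and 2.59 with 0.7 µM, 1.95 and 6.13 with 3 µM, 4.67 and 16.4 with 5 µM, and 6.03 and 15.5 with 7.5 µM. All 4 libraries at 5 and 7.5 µM lay above both libraries at 0.7 µM. BMP4 rose by 2.05 (SE 0.35, adjusted p = 0.00733) from 0.7 to 7.5 µM and by 2.16 (SE 0.36, adjusted p = 0.0208) from 0.7 to 5 µM. Its slope was 0.65 per doubling (SE 0.13, adjusted p = 0.0459). Without replicate 2 at 0.7 µM the first change was 1.64 and missed the threshold (adjusted p = 0.0661). The second missed it without any 1 of its 4 libraries (adjusted p 0.0546 to 0.208), with values from 1.76 to 2.53.

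BMP5, a close relative of BMP6 and BMP7, had 1 count in the 2 hPSC libraries together. At day 11 it was at 1.17 and 7.48 CPM with 0.7 µM, 2.81 and 9.51 with 3 µM, 3.37 and 14.0 with 5 µM, and 8.52 and 25.2 with 7.5 µM. The level went up with every step of the dose in both sets, with replicate 2 the higher library at each. Both libraries at 7.5 µM lay above both at 0.7 µM, while the ranges of neighbouring doses overlap. BMP5 rose by 2.01 (SE 0.37, adjusted p = 0.00911) from 0.7 to 7.5 µM, and without replicate 1 at 0.7 µM the value was 1.57 (adjusted p = 0.0524). Its change from 0.7 to 5 µM was 1.16 (SE 0.37, adjusted p = 0.217), and its slope of 0.55 per doubling had an adjusted p of 0.0606.

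BMP2, the ligand most similar to BMP4, was at 3.38 and 3.19 CPM in hPSC. At day 11 it was at 5.41 and 14.2 with 0.7 µM, 8.44 and 20.7 with 3 µM, 11.1 and 29.7 with 5 µM, and 9.36 and 30.8 with 7.5 µM. Both 7.5 µM libraries were above the 0.7 µM library of their own number, by ratios of 1.73 and 2.17. The blocked change was 0.80 (SE 0.29, adjusted p = 0.101), which did not pass. GDF7, a ligand made by the roof plate, was at 0.619 and 1.08 CPM in hPSC and under 1 CPM in every day 11 library up to 5 µM, from 0.225 to 0.818. With 7.5 µM it was at 1.13 and 3.12 CPM, above each of those libraries. The change from 0.7 µM was 1.68 (SE 0.50, adjusted p = 0.0577), which also missed the threshold. With no filter on low counts it passed (1.69, adjusted p = 0.0269).

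BMP7, which pairs with BMP2, BMP4 and others in heterodimers, showed no dose pattern. It was at 237 and 143 CPM with 0.7 µM, 184 and 129 with 3 µM, 199 and 149 with 5 µM, and 222 and 178 with 7.5 µM. The ranges of all 4 doses overlap. The change from 0.7 to 7.5 µM was -0.05 (SE 0.24, adjusted p = 0.908), and without scaling factors it was 0.11. BMP7 shares its locus with an antisense gene, BMP7-AS1, as GDF7, ID2 and ID4 do with genes on the opposite strand. How the counting treated strand was not given in the sources used here, so reads of these partners cannot be told apart from theirs.

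**Figure D3:**
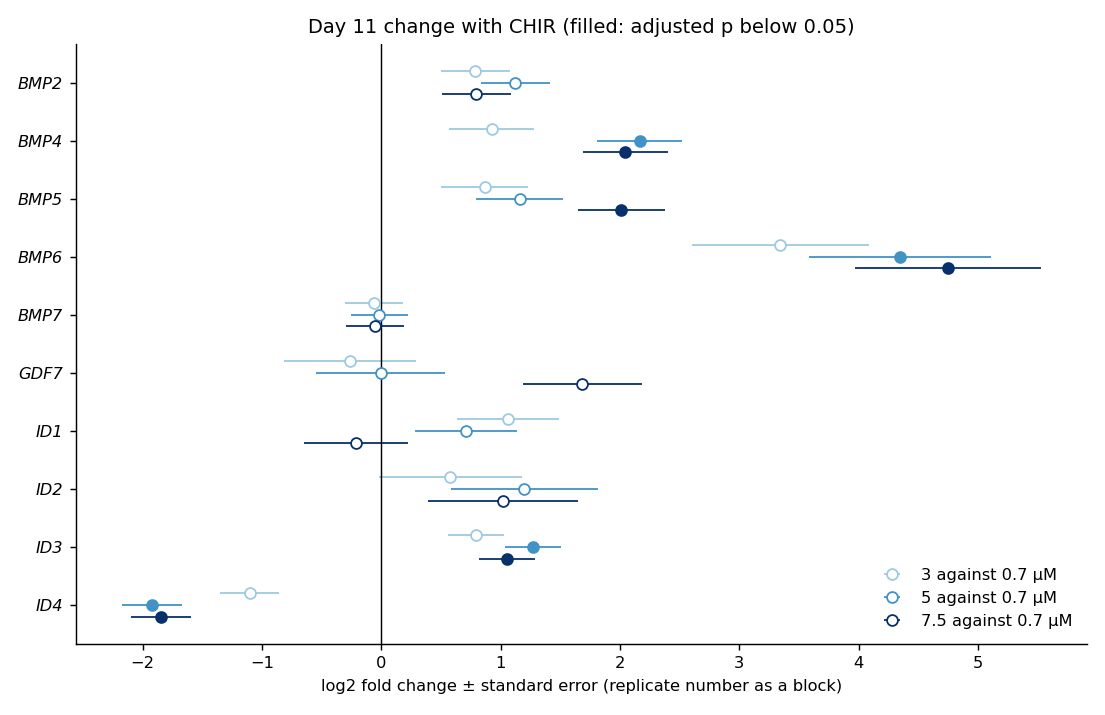
Log2 fold change of each gene from 0.7 µM CHIR to 3, 5 and 7.5 µM at day 11 (x axis; bars are standard errors), with the replicate number as a block, over 8 libraries. Filled points have an adjusted p below 0.05: BMP4, BMP6, ID3 and ID4 at 5 µM, and these and BMP5 at 7.5 µM.

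Few of the receptors and SMADs that pass on the signal passed the test, and their summed levels moved differently in the replicate sets. From 0.7 to 7.5 µM the sum of 7 receptor genes went from 103 to 183 CPM in replicate 1 and from 288 to 232 in replicate 2. The sum of 4 SMAD genes went from 123 to 235 CPM in replicate 1 and from 341 to 326 in replicate 2. Of 6 receptor genes tested, 1 rose from 0.7 to 7.5 µM with a median change of 0.22, beside 0.07 over all genes tested. That gene was BMPR2, the main type II receptor of BMPs, at 10.5 and 30.3 CPM with 0.7 µM and 36.1 and 62.2 with 7.5 µM (change 1.25, SE 0.28, adjusted p = 0.0203). None of the 4 SMAD genes passed (median 0.30), nor did any of 6 other feedback genes of the pathway (median 0.26). SMAD6 and SMAD7, inhibitory SMADs that BMP signalling itself induces, had changes of -0.48 (SE 0.39) and -0.25 (SE 0.42). In CPM without scaling factors, other genes of this list were higher with 7.5 than with 0.7 µM in both sets, though none of them passed. BAMBI went from 7.84 and 7.84 to 14.5 and 8.82 CPM, and ATOH8 from 7.21 and 2.64 to 10.4 and 9.2. The replicate 2 scaling factors were 1.003 at 0.7 µM and 1.145 at 7.5 µM, so the small BAMBI difference there may depend on leaving them out. SMURF2 went from 18.4 and 35.5 to 38.0 and 45.1 CPM. SMURF1, a ubiquitin ligase for SMADs and the highest of the feedback genes, was at 54.1 and 51.6 CPM with 0.7 µM and 78.7 and 61.2 with 7.5 µM, a change of 0.24 (SE 0.25). Among 6 other BMP and GDF ligands tested none passed (median 0.38). Of 4 TGF-beta, activin and NODAL ligands tested, TGFB2 rose (2.17, SE 0.55, adjusted p = 0.0324).

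Secreted modulators of BMPs went both ways: of 11 tested, 3 rose and 1 fell (median 0.18). NOG, which encodes noggin and binds BMP4 and BMP2 outside the cell, was at 25.1 and 20.5 CPM with 0.7 µM and at 8.26 and 10.9 with 7.5 µM, without overlap. It fell by 1.44 on the log2 scale (SE 0.30, adjusted p = 0.015). GREM1, which encodes another secreted antagonist, went from 1.02 and 2.95 to 5.67 and 9.51 CPM, a rise of 1.91 (SE 0.39, adjusted p = 0.0143). TLL1, a protease that cleaves the antagonist chordin, went from 2.58 and 3.02 to 9.62 and 15.6 CPM, a rise of 1.96 (SE 0.36, adjusted p = 0.00893). SOSTDC1 rose too (2.77, SE 0.72, adjusted p = 0.0354), at no more than 0.891 CPM in any day 11 library.

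ID3 and ID4 moved in opposite directions with the CHIR dose, while ID1 and ID2 did not pass in any dose comparison. ID3 was at 51.4 and 27.0 CPM in hPSC, 49.2 and 49.6 with 0.7 µM, 69.0 and 81.7 with 3 µM, 99.9 and 127 with 5 µM, and 125 and 106 with 7.5 µM. Every library at a higher dose lay above both libraries at 0.7 µM. ID3 rose by 1.27 (SE 0.23, adjusted p = 0.0319) from 0.7 to 5 µM and by 1.05 (SE 0.23, adjusted p = 0.019) from 0.7 to 7.5 µM. The change at 7.5 µM missed the threshold without replicate 1 at 0.7 µM (0.99, adjusted p = 0.123) or without replicate 2 there (adjusted p = 0.0826). That at 5 µM missed it without any 1 of its 4 libraries (1.18 to 1.35, adjusted p 0.114 to 0.37), and without scaling factors (1.20, adjusted p = 0.0765). The ID3 slope of 0.36 per doubling had an adjusted p of 0.0615.

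ID4, the family member known from neural progenitors and astrocytes, was at 12.2 and 5.51 CPM in hPSC and at its highest with 0.7 µM, at 54.7 and 47.7. It was at 19.7 and 22.0 with 3 µM, 13.7 and 11.8 with 5 µM, and 17.4 and 14.7 with 7.5 µM. No library of a higher dose reached those at 0.7 µM, and the 2 replicate sets gave nearly the same ratios to 0.7 µM at 7.5 µM, 0.318 and 0.308. ID4 fell by 1.85 on the log2 scale (SE 0.25, adjusted p = 0.00237) from 0.7 to 7.5 µM, a call that held without any 1 of the 4 libraries compared (adjusted p 0.00126 to 0.0186). From 0.7 to 5 µM it fell by 1.92 (SE 0.25, adjusted p = 0.00629), and this call was lost without replicate 1 at 5 µM (-2.07, adjusted p = 0.0674) or replicate 2 at 5 µM (-1.78, adjusted p = 0.115). Its slope was -0.58 per doubling (SE 0.07, adjusted p = 0.00854). That call was lost without replicate 1 at 0.7 µM (adjusted p = 0.0936) or replicate 2 there (adjusted p = 0.0641). The slopes of BMP4 and BMP6 missed the threshold in 7 and 6 of 8 fits that left out 1 library, with adjusted p up to 0.239 and 0.107. Without the block, 25 genes (0.134%) had a slope that passed, and none of the 10 did.

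The windows before the starts of ID3, ID4 and ID1 are shown because these family members parted: 1 rose, 1 fell and 1 did not pass. Each is the 250 bases before the annotated start in RefSeq on GRCh38.p14, read 5′ to 3′ along the gene, with matches to the 3 motifs in capitals. ID3 (chr1:23559502-23559751, minus strand) holds CTTTGA at 179 to 174 bases before the start and CAGAC at 147 to 143. ID4 (chr6:19837120-19837369, plus strand) holds CAGAC at 205 to 201, and ID1 (chr20:31605039-31605288, plus strand) holds none of the 3. Of 35116 windows of this kind, 11.2% hold CTTTGA, 38.0% hold CAGAC and 16.4% hold GGCGCC, on either strand. A match is a run of letters and not a measured binding site, and enhancers farther away were not searched. Of the 10 genes, 8 had a window in the table, and BMP4 had 3, of which the farthest upstream holds GGCGCC and CAGAC and another holds CAGAC.
ID3: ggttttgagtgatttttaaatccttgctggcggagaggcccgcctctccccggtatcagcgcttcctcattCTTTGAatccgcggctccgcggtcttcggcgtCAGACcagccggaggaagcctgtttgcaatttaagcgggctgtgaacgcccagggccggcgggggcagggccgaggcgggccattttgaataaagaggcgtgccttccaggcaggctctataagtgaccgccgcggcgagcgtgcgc
ID4: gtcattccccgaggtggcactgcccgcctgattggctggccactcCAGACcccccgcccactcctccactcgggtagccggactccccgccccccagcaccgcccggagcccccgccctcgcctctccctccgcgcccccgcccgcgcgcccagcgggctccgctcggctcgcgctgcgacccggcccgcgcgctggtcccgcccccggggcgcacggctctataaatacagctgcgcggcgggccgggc
ID1: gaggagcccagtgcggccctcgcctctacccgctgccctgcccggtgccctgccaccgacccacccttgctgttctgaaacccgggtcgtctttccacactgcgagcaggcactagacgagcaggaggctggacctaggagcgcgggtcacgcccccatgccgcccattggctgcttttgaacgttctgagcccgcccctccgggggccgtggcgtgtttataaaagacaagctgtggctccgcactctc

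ID1 and ID2 differed between the replicate sets. ID1 was at 17.3 and 11.6 CPM in hPSC, 5.21 and 14.4 with 0.7 µM, 11.0 and 23.9 with 3 µM, 6.40 and 26.8 with 5 µM, and 8.55 and 7.51 with 7.5 µM. From 0.7 to 7.5 µM it went up in replicate 1 (log2 ratio of CPM 0.71) and down in replicate 2 (-0.94). The blocked change was -0.21 (SE 0.43, adjusted p = 0.783), and its sign turned without replicate 2 at 0.7 µM (0.14) or at 7.5 µM (0.42). ID2 was at 36.1 and 24.8 CPM in hPSC, 5.60 and 15.7 with 0.7 µM, 13.2 and 17.0 with 3 µM, 32.4 and 18.4 with 5 µM, and 43.4 and 12.7 with 7.5 µM. In replicate 1 it climbed with each dose to 7.75 times its 0.7 µM level, and in replicate 2 it stayed between 12.7 and 18.4 CPM. The blocked change was 1.02 (SE 0.63, adjusted p = 0.311), and it was -0.02 without replicate 1 at 0.7 µM and -0.04 without replicate 1 at 7.5 µM. It passed without replicate 2 at 0.7 µM (2.45, adjusted p = 0.0478) and with no filter on low counts (1.05, adjusted p = 0.0255).

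A test of whether the slopes of the 2 sets differ was added after these values had been seen. For ID2 the slope per doubling was 0.87 in replicate 1 and -0.07 in replicate 2, a difference of -0.94 (SE 0.18, unadjusted p = 0.001) that did not pass over all genes (adjusted p = 0.75 by edgeR). No gene of 18709 passed that test in edgeR (0%), and 1196 had an unadjusted p below 0.05. For ID1 the difference was -0.20 (SE 0.43, adjusted p = 0.955), for ID3 -0.05 (SE 0.14, adjusted p = 0.976) and for ID4 -0.05 (SE 0.15, adjusted p = 0.977). The BMP6 slope was 2.44 in replicate 1, where the 0.7 µM library held no count, and 1.10 in replicate 2. Their difference was -1.33 (SE 0.44, unadjusted p = 0.0178, adjusted p = 0.75 by edgeR).

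**Figure D4:**
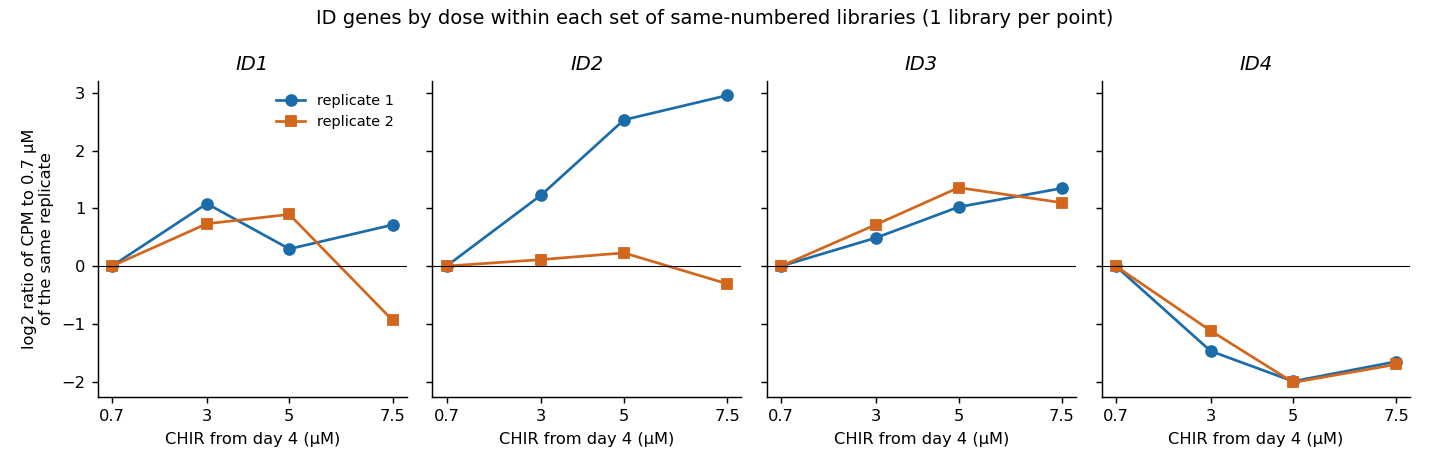
Log2 ratio of CPM to the 0.7 µM library of the same replicate number (y axis) for the 4 ID genes, by CHIR dose in µM (linear x axis), 1 library per point. ID3 lies above 0 and ID4 below 0 at each higher dose in both sets, while ID2 reaches 2.95 in replicate 1 and -0.31 in replicate 2 at 7.5 µM.

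Across all doses, replicate 2 stood above replicate 1 for most ligands. BMP5 (1.76, SE 0.26, adjusted p = 0.000682), BMP6 (1.67, SE 0.50, adjusted p = 0.0167), BMP2 (1.25, SE 0.20, adjusted p = 0.000948), BMP4 (1.17, SE 0.24, adjusted p = 0.00283) and GDF7 (1.01, SE 0.37, adjusted p = 0.0402) were higher in that set by edgeR, as was ID1 (0.91, SE 0.31, adjusted p = 0.03). BMP7 was lower there (-0.70, SE 0.17, adjusted p = 0.00603). ID2, ID3 and ID4 did not pass. With 55.6% of all genes called in this comparison, 7 of the 10 is near the background. The calls for GDF7 and ID1 were lost in 3 of the 4 fits that left out 1 dose, and that for BMP7 without the 3 µM arm (-0.63, adjusted p = 0.0605). DESeq2 did not call BMP6 (adjusted p = 0.0773) or GDF7 (adjusted p = 0.0829). ID2 was lower in replicate 2 once the 0.7 µM arm was left out (-1.02, adjusted p = 0.0377).

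Most of the listed dorsal neural tube genes, which BMP and WNT signals induce, were higher at 7.5 than at 0.7 µM. Of 9 tested, 7 rose from 0.7 to 7.5 µM and none fell, with a median change of 2.62 beside 0.07 for all genes. LMX1A is on this list and also among the midbrain floor plate markers. It was not among the 7 that rose, at 80.8 and 42.3 CPM with 0.7 µM and at 102 and 119 with 7.5 µM. PAX3, a dorsal progenitor factor, went from 0.097 and 2.06 CPM to 18.6 and 40.3. It rose by 4.91 (adjusted p = 0.000932). ZIC1, another, went from 0.292 and 0.067 CPM to 80.9 and 37.2 and rose by 8.31 (adjusted p = 0.000264). MSX1, a classic BMP target, went from 21.1 and 10.0 to 52.7 and 52.7 CPM (1.82, SE 0.49, adjusted p = 0.0401), with its highest level, 96.2 CPM, in replicate 1 at 5 µM. The list was chosen with results of these data known, so its count is no independent evidence of its direction. The E proteins that ID proteins bind did not pass (0 of 3 tested, median 0.71). Of 7 HES and HEY factors tested, HES4 fell (-1.38, SE 0.33, adjusted p = 0.0253) and none rose.

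Markers of other cell types also moved with the dose. The summed level of 6 mesoderm markers was 1.07 to 1.66 CPM with 0.7 µM and 12.8 to 24.0 with 7.5 µM, where T (brachyury), a gene that WNT also induces, made up 11.5 and 21.6 CPM and MSGN1 was at 0.119 and 0.031. Of 4 mesoderm markers tested, T alone rose. For mesenchyme and vessel the sum of 4 markers was 54.3 to 104 CPM in hPSC, 10.2 to 28.6 with 0.7 µM and 41.9 to 76.2 with 7.5 µM, COL1A1 and PDGFRB rose, and CDH5 was at 0.030 and 0.125 CPM with 7.5 µM. Of the neural crest markers, TFAP2B rose, from 0.049 and 0.335 CPM with 0.7 µM to 0.267 and 3.58 with 7.5 µM. The defining crest factors SOX10 and FOXD3 were at 0.059 CPM or less in each 7.5 µM library. Of 7 surface ectoderm and amnion markers, TFAP2C fell and the sum was 0.437 to 0.832 CPM with 7.5 µM. None of 3 choroid plexus markers tested passed. Of 5 floor plate markers, OTX2 rose and CORIN and SHH fell, of 5 neural progenitor markers PAX6 and MSI1 fell, and of 4 neuron markers with a single entry in the tables DCX fell. None of 3 pluripotency markers tested passed. The part of such cells in the changes of the BMP and ID genes was not tested.

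Against hPSC, BMP7 and BMP5 were higher in all 4 day 11 arms. The hPSC libraries do not share the codes that the sample descriptions give the day 11 sets. A difference between sets of libraries thus cannot be told apart from differentiation here. Calls in these comparisons covered 11.4% of 19672 genes with 0.7 µM, 13.7% with 3 µM, 11.4% with 5 µM and 10.1% with 7.5 µM, and 3, 3, 4 and 4 of the 10 genes. BMP7 went from 24.6 and 27.6 CPM in hPSC to 129 to 237 over the day 11 libraries, by edgeR a change of 3.03 (SE 0.49, adjusted p = 0.0101) with 0.7 µM and of 2.93 (SE 0.49, adjusted p = 0.0108) with 7.5 µM. With 1 BMP5 count in hPSC, only ratios of counts scaled by library size are given, with exact 95% intervals that cover counting error only: 315 (56.2 to 12500) with 0.7 µM, 359 (64.1 to 14200) with 3 µM, 571 (102 to 22600) with 5 µM and 955 (171 to 37800) with 7.5 µM. BMP4 was higher than in hPSC with 5 µM (3.04, SE 0.74, adjusted p = 0.0373) and 7.5 µM (2.88, SE 0.73, adjusted p = 0.0463). BMP2 missed the threshold with 5 µM (2.81, SE 0.75, adjusted p = 0.0501), and BMP6 did not pass in any arm. With the replicate number as a block within day 11, BMP2 passed in all 4 arms (1.58 to 2.71). BMP6 passed with that block at 3 µM (1.88, adjusted p = 0.025), 5 µM (2.88, adjusted p = 0.00307) and 7.5 µM (3.27, adjusted p = 0.00195). That block called 9064, 9863, 9437 and 6838 of 19672 genes in order of rising dose, a far larger background than without it.

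Of the ID genes, ID4 was above hPSC at the low doses and ID3 at the high ones. ID4 was higher by 2.70 (SE 0.46, adjusted p = 0.0113) with 0.7 µM and by 1.60 (SE 0.44, adjusted p = 0.0491) with 3 µM. ID3 was higher by 1.78 (SE 0.37, adjusted p = 0.0231) with 5 µM and by 1.56 (SE 0.37, adjusted p = 0.0367) with 7.5 µM. ID1 and ID2 passed in none of the 4 comparisons. With the replicate block within day 11, BMP4 (1.63, adjusted p = 0.00198) and ID3 (1.30, adjusted p = 0.00242) passed with 3 µM too, as did 9863 of 19672 genes. These arms share the hPSC libraries. Every one of the calls made against hPSC without the replicate block was lost in at least 1 fit that left out 1 library. The fits with the block were not repeated in this way. For BMP7 with 0.7 µM, leaving out replicate 1 of hPSC gave 2.94 (adjusted p = 0.103) and replicate 2 of hPSC gave 3.15 (adjusted p = 0.0999).

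Later in the 7.5 µM protocol most of the ligands and ID genes were lower than at day 11. GDF7, at 1.26 and 3.33 CPM at day 16, was near its day 11 level. BMP7 was at 65.8 and 28.7 CPM at day 16 and at 7.95 and 11.5 at day 30, below the 178 to 222 of day 11. BMP2 was at 3.00 and 2.22 CPM at day 16 and 0.530 and 0.183 at day 30. From day 16 to day 30 BMP7 fell by 2.06 on the log2 scale (SE 0.61, adjusted p = 0.023) and BMP2 by 2.62 (SE 0.87, adjusted p = 0.0471), in a comparison where 11% of 15435 genes passed. Neither passed with the replicate number as a block (adjusted p = 0.0899 and 0.109) or without scaling factors (0.0566 and 0.0737). Leaving out either day 30 library also ended both calls (adjusted p 0.611 to 1), and leaving out replicate 1 of day 16 ended that of BMP2 (adjusted p = 0.121).

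ID3 was at 5.05 and 0.740 CPM at day 16 and at 0 and 0.549 at day 30, against 125 and 106 at day 11. ID1 was at 0.474 and 0 CPM at day 16 and at 0 and 0.366 at day 30. At these depths 3 counts come to 0.473 to 0.555 CPM, so values this low are at the limit of detection. ID2 was at 6.15 and 2.96 CPM and then 1.59 and 2.01, a change of -1.13 (SE 0.78, adjusted p = 0.41). ID4 was at 17.0 and 7.03 CPM at day 16 and 11.0 and 10.2 at day 30, a change of 0.05 (SE 0.67, adjusted p = 0.973). It made up 86.6% and 74.3% of the ID sum per kb at day 30. The other 6 genes had too few counts to be tested. The later libraries were counted in other tables than the day 11 libraries, so day 11 and later levels are set side by side without a test.

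**Figure D5:**
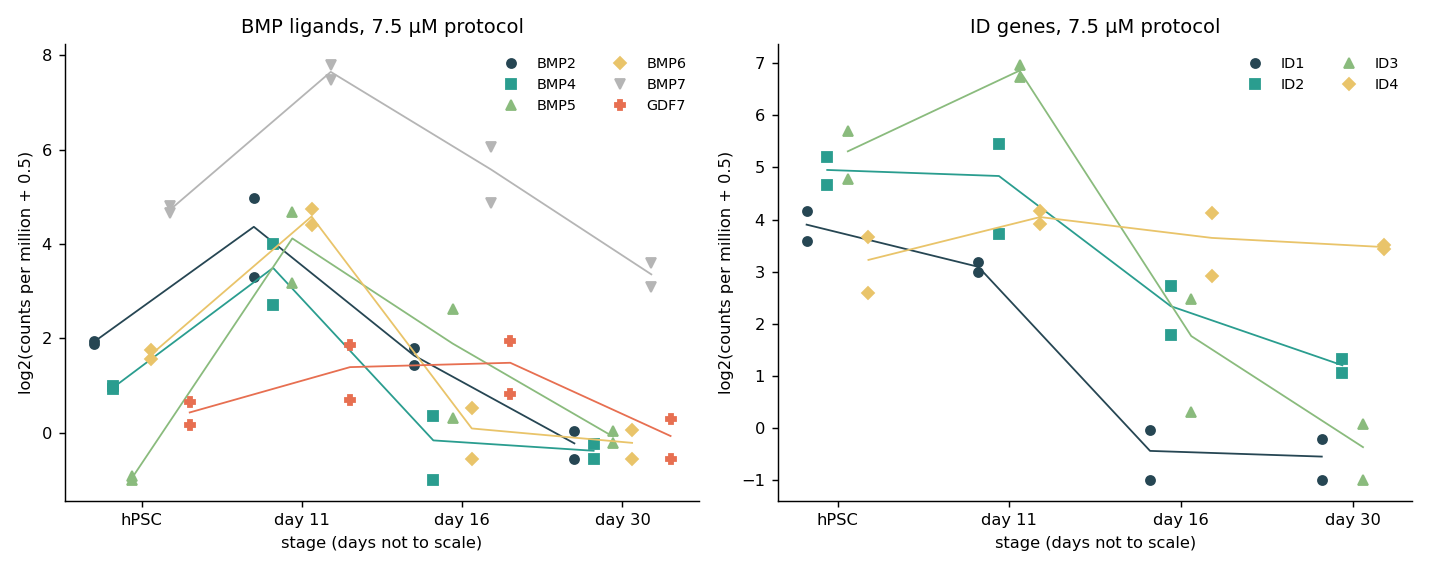
Level as log2(CPM + 0.5) of the ligands (left) and ID genes (right) in hPSC and in the 7.5 µM arm at days 11, 16 and 30. Points are libraries and lines join the means of 2. Most genes are highest at day 11, while ID4 stays between 7.03 and 17.4 CPM from day 11 to day 30.

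Beside AXIN2 for BMP6, the genes that most closely followed each of the others over the 8 day 11 libraries were CD82 for BMP2 (r = 0.977), SP6 for BMP4 (0.982), CACNA2D4 for BMP5 (0.989) and KDM1A for BMP7 (0.99). They were MSMO1 for ID1 (0.978), SMS for ID2 (0.947), AC141928.1 for ID3 (0.969) and PRKAG2 for ID4 (0.972). GDF7 was under the mean of 1 CPM required. No gene was the closest to more than 1 of the 9, and with 11702 genes and 8 libraries that share doses and replicate sets these are descriptions only.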

How the data were processed

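Total RNA of 14 libraries was measured. Each file the authors deposited holds raw counts of reads per gene. The submitters' processing notes list the aligner STAR (2.4.2a), the counters featureCounts (1.4.2) and HTSeq (0.5.3), DESeq2 (1.12.4) and the build hg19, without saying what each did. What annotation, strand setting and counting options were used was not given in the sources used here. Entries for reads assigned to no gene made up 37.41% to 44.33% of each hPSC and day 11 table and were dropped.

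The 10 genes, the gene lists and the tests were chosen with earlier results of these data known. Tests used edgeR 4.0.16 with limma 3.58.1 in R 4.3.3: robust quasi-likelihood F-tests, TMM scaling, filterByExpr, and p-values adjusted over all genes tested. The 8 day 11 libraries entered the dose comparisons and the slope over log2 dose, these and the 2 hPSC libraries the comparisons with hPSC, and 4 libraries day 30 against day 16. Each dose fit was made both with a replicate block and with none: the deviations of same-numbered libraries from their group means correlated at 0.66 to 0.87 across genes for the 6 pairs of day 11 groups, and the sample descriptions give each set 1 code. CPM use gene counts alone, with no scaling factor. Exon lengths and overlaps came from GENCODE 29 by gene identifier. From each list up to 4 genes past the threshold, those of largest change, or otherwise up to 2 of the highest level were named. SMAD6, SMAD7, BAMBI, ATOH8, SMURF2, MSX1, LMX1A, AXIN2, DPPA4, POU5F1 and markers at or near 0 were named outside that rule, after their values were seen. Other settings tried were DESeq2 1.42.0 size factors and its Wald test, no scaling, no filter on low counts, only the 2 arms compared, and leaving out 1 library. The fits were tested on simulated counts. The result of 1 marker gene, and the summed level of its list, are not reported here.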

Additional observations from a re-analysis of the deposited data

Results flagged for a closer look

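For 3 of the 10 genes the 2 sets of same-numbered day 11 libraries moved in opposite directions from 0.7 to 7.5 µM CHIR. ID2 had a log2 ratio of CPM of 2.954 in replicate 1 and -0.306 in replicate 2. ID1 had 0.714 in replicate 1 and -0.937 in replicate 2. BMP7 had -0.094 in replicate 1 and 0.314 in replicate 2. Each ratio rests on 1 library per dose. The difference between the sets at these 2 doses was not tested by itself; that between their slopes over the 4 doses had adjusted p-values of 0.75 for ID2, 0.955 for ID1 and 0.93 for BMP7 by edgeR. The other 7 genes moved the same way in both sets.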

How the results depend on the processing

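With the replicate block, the genes called went from 0 to 1967 for 7.5 against 0.7 µM, 211 for 5 against 0.7, 4 for 3 against 0.7 and 1221 for 7.5 against 5, and from 25 to 222 for the slope, and of the 10 genes 5, 4 and, for the slope, 3 were called. The block moved no call from 3 to 5 µM. A block within day 11 gave 9064, 9863, 9437 and 6838 of 19672 genes against hPSC, in order of rising dose, with 7 of the 10 called at 3 µM. For day 30 against day 16, where same-numbered deviations correlated at -0.22, the block gave 1067 genes and 0 of the 10. With no filter on low counts the blocked fits called 3391 genes (7.5 against 0.7), 783 (5 against 0.7), 320 (3 against 0.7), 74 (5 against 3), 3136 (7.5 against 5) and 383 (slope), with 2 of the 10 at 3 against 0.7 and 1 at 7.5 against 5. Without the block the same setting gave 29 (7.5 against 0.7) and 6 (5 against 0.7), and 1 of the 10 for day 30 against day 16. DESeq2's Wald test without the block called 657, 129, 17 and 203 genes for the comparisons named first above and 330 for the slope, with 2, 2 and, for the slope, 4 of the 10. With the block it called 3006, 612, 196, 33 (5 against 3), 2777 and 812, with 1 of the 10 at 3 against 0.7 and 5 for the slope. Against hPSC it called 4400, 5257, 4525 and 3537 genes, with 5 of the 10 at 3 µM, and for day 30 against day 16 it called 1 of the 10. With no scaling factors the slope without the block called 13 genes, and day 30 against day 16 called 1081 genes and 0 of the 10. Without the 3 µM arm, 4 of the 10 differed between the replicate sets. With no scaling factors the changes of BMP7 and ID1 from 0.7 to 7.5 µM became 0.11 and 0.0030, and that of ID4 from day 16 to day 30 -0.19. Without the 7.5 µM arm the ID2 difference between the sets was 0.066. None of these 4 values passed.

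Leaving out 1 library, the blocked fits called 754 to 5613 genes and 3 to 7 of the 10 (7.5 against 0.7), 50 to 179 and 1 to 2 (5 against 0.7), 0 to 59 and 0 to 1 (3 against 0.7), 0 to 1 genes (5 against 3), 5 to 5828 and 0 to 1 (7.5 against 5), and 2 to 251 and 0 to 3 (slope). The slope without the block called 0 to 29 genes. Against hPSC the counts were 115 to 1592 and 0 to 3, 224 to 1569 and 0 to 2, 181 to 768 and 0 to 2, and 249 to 404 and 0 to 1, and for day 30 against day 16 39 to 8081 and 0 to 5. In the blocked fits the change from 0.7 to 7.5 µM ran from -0.040 to 2.45 for ID2, -1.12 to 0.42 for ID1 and -0.32 to 0.091 for BMP7. The change to 5 µM ran from -0.055 to 0.022 for BMP7 and -0.58 to 0.39 for GDF7, and that to 3 µM from -0.19 to 0.055 for BMP7, -0.83 to 0.14 for GDF7 and -0.29 to 2.18 for ID2. For ID4 from day 16 to day 30 it ran from -0.21 to 0.50. A group left with 1 library is assumed to vary like the others, and the cause of the changed calls was not tested. All 20 of the 7.5 µM calls of the 10 genes under scaling, filter and DESeq2 settings with the block held, as did 15 of 16 at 5 µM. At days 16 and 30, depth limits what can be seen of 6 of the 10 genes.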
